A study of Mus musculus with 3 samples.

Results

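Glycine receptors are chloride channels that open when glycine binds, and gephyrin is the scaffold protein that holds them, and many GABA-A receptors, at inhibitory synapses. The genes described here are *Glra1*, *Glra2* and *Glra3*, which encode alpha subunits, *Glrb*, which encodes the beta subunit, and *Gphn*, which encodes gephyrin, 5 of the 32285 genes in the count matrices. The alpha subunits bind glycine and the beta subunit ties the channel to gephyrin, which is also the enzyme of the last steps of molybdenum cofactor synthesis. Glycine receptors are best known from spinal cord and brain stem, and alpha subunits are also made in the forebrain, where the alpha 2 subunit is the main one of the developing brain.

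The nuclei came from the basolateral amygdala (BLA) of male C57BL/6NRj mice at postnatal day 56, and were sequenced singly (snRNAseq, 10x 3' kit). All 3 libraries are of the same condition, with no treatment or engineered allele. Each dataset pooled tissue of 4 brains from both hemispheres, taken from 1 litter, and the sources do not settle whether the 3 libraries are separate pools. Counts are unique molecular identifiers (UMIs), so that PCR copies of a captured RNA count once, and a level is given in CPM, the counts per 1000000 of all UMIs summed over the nuclei of a group in a library. Counts from nuclei also follow a gene's length and its intron content. Levels of different genes were therefore not compared, apart from *Glra2* as a part of the summed *Glra2* and *Glra3* UMIs.

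Groups of nuclei were defined by the UMIs of a few marker genes. Glutamatergic nuclei had at least 2 UMIs of *Slc17a7* and *Slc17a6*, the vesicular glutamate transporters, and 0 of *Gad1* and *Gad2*, the GABA-synthesizing enzymes, and GABAergic nuclei had the reverse. Both had under 0.1% of their UMIs in *Slc1a2* and *Slc1a3*, the astrocytic glutamate transporters. Among GABAergic nuclei, one set had at least 3 UMIs of *Foxp2*, which the study used to mark intercalated cells, and another had at least 1 UMI each of *Tshz2* and *Rmst*. The remaining GABAergic nuclei are called other GABAergic nuclei. The gate genes are not read as results. The 5 genes took no part in the gates, but they were picked with earlier results of the same nuclei known, so the p-values below describe the differences and are no independent support for them.

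Library 2 held 484 glutamatergic and 388 GABAergic nuclei and library 3 held 208 and 677, with median depths of 15526 and 13115 UMIs per glutamatergic nucleus and 7646 and 7246 UMIs per GABAergic nucleus. The *Foxp2* set held 148 and 334 nuclei, the *Tshz2*-*Rmst* set 17 and 38, and other GABAergic nuclei 218 and 288. Library 1 stood apart, because 515 of its 819 barcodes carried UMIs of both transmitter classes and the gates left 42 glutamatergic and 7 GABAergic nuclei, so it entered no comparison. Libraries 2 and 3 shared 7 cell barcodes. As a check of the class labels with a gene outside the gates, *Slc32a1*, the vesicular transporter of GABA and glycine, was at 19.0 and 12.4 CPM in GABAergic nuclei and at 0.238 and 0.631 CPM in glutamatergic nuclei. *Glra4*, the remaining alpha gene, had at most 9 UMIs in any group of a library and was not tested.

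On mouse build GRCm38, *Glra2* (ENSMUSG00000018589) spans chrX:165129017-165327393 on the minus strand, *Glra3* (ENSMUSG00000038257) chr8:55940460-56130070 on the plus strand, *Glrb* (ENSMUSG00000028020) chr3:80843599-80913660 on the minus strand, *Gphn* (ENSMUSG00000047454) chr12:78226379-78684772 on the plus strand and *Glra1* (ENSMUSG00000000263) chr11:55514238-55608198 on the minus strand. The receptor genes share no stretch longer than 26 identical bases between their annotated transcripts. Genes of the opposite strand that are in the matrices overlap *Glra1* (*Gm12236*) and *Gphn* (*Gm48226*).

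The promoters of the alpha genes with opposite levels in the transmitter classes, *Glra2* and *Glra3*, and of their partner *Glrb*, whose level hardly differed, are shown because they let the start regions of these genes be compared. They are the 250 bases before the RefSeq transcription start on GRCm38.p6, 5′ to 3′ on the strand of the gene, with CG dinucleotides in capitals: chrX:165327394-165327643 on the minus strand for *Glra2*, chr8:55940168-55940417 on the plus strand for *Glra3* and chr3:80913661-80913910 on the minus strand for *Glrb*.
Glra2: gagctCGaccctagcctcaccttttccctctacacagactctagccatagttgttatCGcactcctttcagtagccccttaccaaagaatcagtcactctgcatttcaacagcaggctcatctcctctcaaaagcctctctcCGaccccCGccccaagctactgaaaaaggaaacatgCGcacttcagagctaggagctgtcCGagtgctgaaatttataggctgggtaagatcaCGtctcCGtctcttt
Glra3: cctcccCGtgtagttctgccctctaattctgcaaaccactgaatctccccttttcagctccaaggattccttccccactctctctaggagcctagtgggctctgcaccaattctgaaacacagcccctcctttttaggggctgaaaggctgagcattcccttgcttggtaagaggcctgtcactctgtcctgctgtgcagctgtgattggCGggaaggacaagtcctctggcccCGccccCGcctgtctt
Glrb: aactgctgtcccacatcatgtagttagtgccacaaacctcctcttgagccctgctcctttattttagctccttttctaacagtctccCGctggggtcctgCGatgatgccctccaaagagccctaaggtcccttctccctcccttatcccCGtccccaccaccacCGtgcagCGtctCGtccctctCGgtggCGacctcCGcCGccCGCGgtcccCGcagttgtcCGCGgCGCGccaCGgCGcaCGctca
The *Glra2* window held 8 CG dinucleotides, the *Glra3* window 4 and the *Glrb* window 20, against a median of 6 over 27025 promoters. As many CG dinucleotides as in *Glrb* occurred in 17.7% of promoters, as many as in *Glra2* in 43.4% and as many as in *Glra3* in 61.9%. The window of *Gphn*, whose RefSeq start lies inside the annotated gene, held 34, a number reached by 3.36% of promoters. On either strand, the letters TATAAA were present in *Glra2* alone of these 4 windows, beginning 36 bases before the start on the reverse strand, and in 12.97% of all promoters. GGGCGG was present in each of the 4 windows and in 32.9% of all promoters, and TGTTTA was in none of the 4 windows and in 12.03% of all promoters. These matches are descriptions of letters, not of bound sites.

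Between the transmitter classes the alpha genes moved in opposite directions. *Glra2* was lower in glutamatergic than in GABAergic nuclei, *Glra3* was higher, and *Glrb* and *Gphn* lay within the spread of the libraries. Across all 12871 genes tested between glutamatergic and GABAergic nuclei, 2125 were called at an adjusted p under 0.05 (16.5%), 1000 of them higher (7.77%) and 1125 lower (8.74%) in glutamatergic nuclei, and with the library as a replicate block the number was 3202. Of the 5 genes, all of which passed the filter on low counts, 1 was called higher and 1 lower.

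*Glra2*, the gene of the alpha 2 subunit, was at 33.1 and 35.3 CPM in glutamatergic nuclei of libraries 2 and 3, from 278 and 112 UMIs, and at 99.98 and 138 CPM in GABAergic nuclei, from 357 and 820 UMIs. Both GABAergic values lay above both glutamatergic values. Of the 357 and 820 UMIs, 245 and 596 lay in the *Foxp2* set, which held 38.1% and 49.3% of GABAergic nuclei. Other GABAergic nuclei were at 53.0 and 64.7 CPM. *Tshz2*-*Rmst* nuclei were at 29.6 and 81.4 CPM, in library 2 below glutamatergic nuclei. The class value thus mixes unlike sets of GABAergic nuclei. The mean was 34.2 ± 1.56 CPM in glutamatergic nuclei against 119 ± 26.7 CPM in GABAergic nuclei (SD, n = 2 libraries). The log2 fold change, glutamatergic minus GABAergic, was -1.80 ± 0.22 (SE), with an adjusted p of 6.01e-05 in edgeR's quasi-likelihood test, and it was -1.58 and -1.90 in the single libraries.

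*Glra3*, the gene of the alpha 3 subunit, showed the opposite order. It was at 78.6 and 90.2 CPM in glutamatergic nuclei, from 660 and 286 UMIs, and at 32.8 and 41.1 CPM in GABAergic nuclei, from 117 and 245 UMIs. The groups did not overlap, with means of 84.4 ± 8.19 and 37.0 ± 5.92 CPM (SD, n = 2 libraries). Its log2 fold change was 1.19 ± 0.20 (SE; edgeR adjusted p = 0.000849), with 1.27 and 1.19 in the single libraries.

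*Glra1*, the gene of the alpha 1 subunit that prevails in adult spinal cord and brain stem, was sparse. Glutamatergic nuclei held 38 and 12 UMIs of it (4.52 and 3.78 CPM) and GABAergic nuclei 9 and 14 UMIs (2.52 and 2.35 CPM). The values did not overlap, but the log2 fold change of 0.79 ± 0.42 did not pass (edgeR adjusted p = 0.267). When GABAergic nuclei with any UMI of *Neurod2*, *Neurod6*, *Tbr1* or *Sv2b* were left out, an alternative chosen after seeing the data, the fold change was 1.18 ± 0.47 and did not pass either (edgeR adjusted p = 0.118).

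*Glrb*, whose product is shared by receptors of every alpha subunit, was at 74.7 and 84.2 CPM in glutamatergic nuclei and at 82.3 and 81.8 CPM in GABAergic nuclei. These ranges overlapped, and the log2 fold change was -0.02 ± 0.17 (edgeR adjusted p = 0.965). *Gphn* was at 718 and 848 CPM in glutamatergic nuclei and at 776 and 888 CPM in GABAergic nuclei. In both classes it was higher in library 3 than in library 2, by more than the classes differed, and the log2 fold change was -0.05 ± 0.26 (edgeR adjusted p = 0.946).

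**Figure D1:**
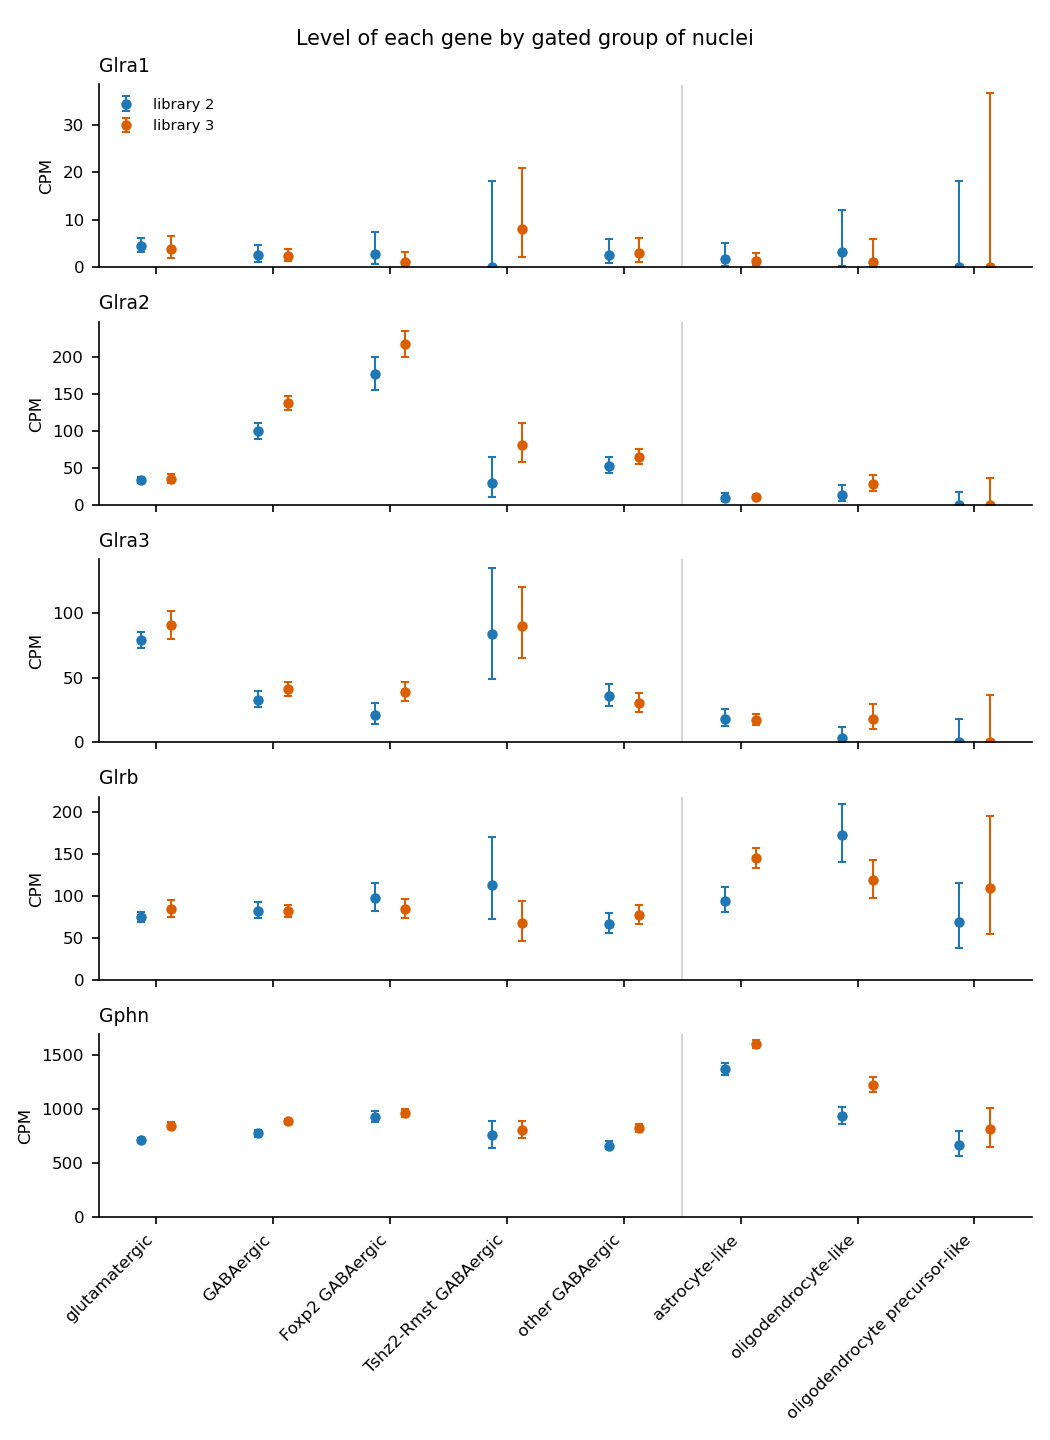
Level of each gene in CPM (y axis, 1 panel per gene) in 5 groups of neuronal nuclei and 3 glial groups (x axis), with library 2 in blue, library 3 in orange and bars for exact Poisson 95% intervals, which cover counting error only. *Glra2* stood highest in the *Foxp2* set, at 177 and 217 CPM, *Glra3* in glutamatergic and *Tshz2*-*Rmst* nuclei, and *Gphn* in astrocyte-like nuclei.

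Counted together, the UMIs of *Glra2* and *Glra3* divided differently in the classes. *Glra2* made up 29.6% of them in glutamatergic nuclei of library 2 (exact binomial 95% interval 26.7 to 32.7%) and 28.1% in library 3 (23.8 to 32.8%). In GABAergic nuclei its part was 75.3% and 76.97%, and in the *Foxp2* set 89.4% and 84.9%. Other GABAergic nuclei had 59.6% and 68.0%, and *Tshz2*-*Rmst* nuclei 26.1% (10.2 to 48.4%) and 47.6% (36.6 to 58.8%). This is a ratio of captured RNA, in which each gene's capture and length enter, and not one of protein subunits.

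**Figure D2:**
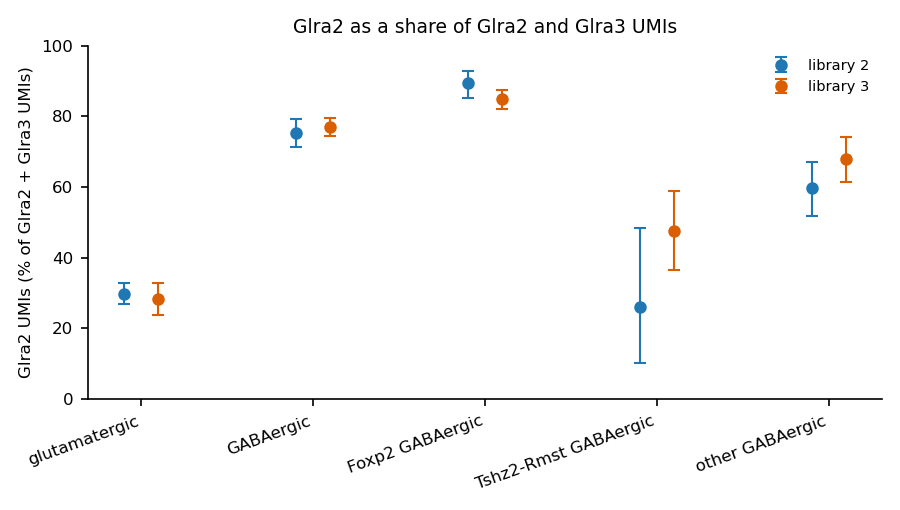
Percent of the summed *Glra2* and *Glra3* UMIs that were *Glra2* (y axis) in 5 groups of neuronal nuclei (x axis), library 2 in blue, library 3 in orange, with exact binomial 95% intervals. Glutamatergic nuclei sat at 29.6% and 28.1%, and the *Foxp2* set at 89.4% and 84.9%.

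The share of nuclei with at least 1 UMI follows depth, and glutamatergic nuclei were deeper, so each nucleus was also thinned to 3700 UMIs, which left out 28 and 12 shallower glutamatergic and 51 and 76 GABAergic nuclei. *Glra2* was found in 25.2% and 20.7% of glutamatergic nuclei unthinned and in 8.11% and 9.18% thinned, against 36.9% and 46.5% of GABAergic nuclei unthinned and 24.3% and 31.1% thinned. *Glra3* was found in 47.1% and 45.7% of glutamatergic nuclei, 21.7% and 22.4% thinned, and in 13.4% and 16.4% of GABAergic nuclei, 8.61% and 9.15% thinned. For both alpha genes the order of the classes was the same as in CPM at either depth.

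For *Glrb* the order of the classes was not the same at both depths, and none is read from its shares. Unthinned it was found in 59.7% and 58.2% of glutamatergic and 43.6% and 42.2% of GABAergic nuclei, and thinned in 20.6% and 25.0% against 26.4% and 26.1%. *Gphn* was found in nearly all nuclei of either class, in 98.1% and 97.1% of glutamatergic and 95.4% and 97.6% of GABAergic nuclei, and in 89.7% to 94.7% at the lower depth. *Glra1* was in 1.75% and 1.53% of thinned glutamatergic and 1.19% and 0.998% of thinned GABAergic nuclei.

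The beta gene was also counted with and without an alpha gene at that depth. In GABAergic nuclei *Glrb* was found in 26.8% of nuclei with and 26.3% of nuclei without *Glra2* in library 2, and in 24.6% and 26.8% in library 3. In glutamatergic nuclei it was found in 18.2% of nuclei with and 21.3% of nuclei without *Glra3* in library 2, and in 18.2% and 27.0% in library 3. With few UMIs of each gene per nucleus, this says little about whether both are made in the same cell.

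Members of the GABAergic class differed among themselves chiefly in *Glra2*. In the *Foxp2* set it was at 177 and 217 CPM, from 245 and 596 UMIs, and in other GABAergic nuclei at 53.0 and 64.7 CPM, from 102 and 153 UMIs. The sets did not overlap, with means of 197 ± 28.7 and 58.8 ± 8.28 CPM (SD, n = 2 libraries). The log2 fold change, *Foxp2* set minus other GABAergic nuclei, was 1.78 ± 0.26 (edgeR adjusted p = 0.00012), with 1.76 and 1.79 in the single libraries. In this comparison 1296 of 10250 genes were called (12.6%), 647 of them higher (6.31%) and 649 lower (6.33%), and of the 4 genes that passed the filter *Glra2* alone was called.

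*Glra2* was found in 54.1% and 59.9% of nuclei of the *Foxp2* set and in 26.1% and 29.5% of other GABAergic nuclei, and thinned in 41.0% and 43.6% against 12.99% and 17.9%. In library 2, 31 nuclei of the *Foxp2* set had 1 UMI, 16 had 2 and 33 had 3 or more, and in library 3 the numbers were 68, 53 and 79. The UMIs were thus spread over many nuclei, the largest number in 1 nucleus being 23 in library 2 and 15 in library 3.

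The other genes did not separate these sets. *Glra3* was at 20.9 and 38.7 CPM in the *Foxp2* set and at 35.8 and 30.4 CPM in other GABAergic nuclei, with fold changes of opposite sign in the libraries (-0.75 and 0.39) and a log2 fold change of -0.02 ± 0.28 in the fit (edgeR adjusted p = 0.987). In library 2, 1 nucleus gave 20 of the 69 *Glra3* UMIs of other GABAergic nuclei. *Glrb* was at 97.5 and 84.3 against 67.0 and 77.4 CPM (log2 fold change 0.35 ± 0.20, edgeR adjusted p = 0.335). *Gphn* was at 928 and 965 against 665 and 824 CPM (0.37 ± 0.25, edgeR adjusted p = 0.441). Both were higher in the *Foxp2* set in each library without passing the test, and *Glra1* was too sparse to be tested.

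*Glra2* was higher in nuclei with many UMIs of *Foxp2*. It was 51.3 and 64.9 CPM in GABAergic nuclei with 0 *Foxp2* UMIs (217 and 275 nuclei) and 26.2 and 88.8 CPM at 1 UMI, from 2 and 27 UMIs of *Glra2*. At 2 *Foxp2* UMIs, just outside the gate, it was 86.0 and 71.0 CPM, from 2 and 5 UMIs in 6 and 11 nuclei, and at 3, just inside, 83.6 and 44.1 CPM, from 3 and 3 UMIs in 6 and 7 nuclei. These counts are too low to place the nuclei at the edge of the gate. It was 101 and 102 CPM at 4 to 6 *Foxp2* UMIs, 102 and 167 CPM at 7 to 12, and 209 and 228 CPM at 13 or more (84 and 222 nuclei). Nuclei with 13 or more *Foxp2* UMIs were also deep, with a median of 10112 and 8744 UMIs.

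**Figure D3:**
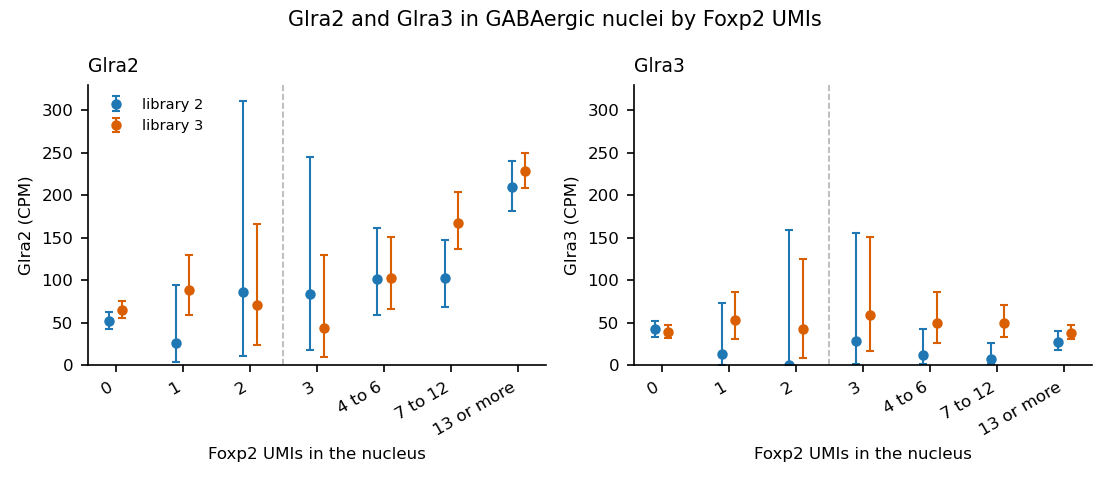
Level of *Glra2* and *Glra3* in CPM (y axis) in GABAergic nuclei binned by their number of *Foxp2* UMIs (x axis), library 2 in blue, library 3 in orange, with exact Poisson 95% intervals and a dashed line at the gate of 3 UMIs. *Glra2* was at 51.3 and 64.9 CPM with 0 *Foxp2* UMIs and at 209 and 228 CPM with 13 or more.

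*Rarb*, a retinoic acid receptor gene that the study used for cells of the amygdalostriatal area, divided the *Foxp2* nuclei further. *Glra2* was at 138 and 163 CPM in *Foxp2* nuclei with *Rarb* (80 and 200 nuclei, those also in the *Tshz2*-*Rmst* gate included) and at 212 and 261 CPM in those without it (73 and 151 nuclei). The level was higher without *Rarb* in both libraries, and in either part it stood above other GABAergic nuclei. *Glra3* gave no common picture, at 34.1 and 39.7 CPM with *Rarb* and 7.35 and 44.5 CPM without it. This division was made after values had been seen and was not tested.

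*Tshz2*-*Rmst* nuclei stood out by *Glra3* instead, although the difference did not pass the threshold. *Glra3* was at 83.9 and 89.5 CPM in them, from 17 and 44 UMIs, and at 35.8 and 30.4 CPM in other GABAergic nuclei, the same nuclei that served in the *Foxp2* comparison. The sets did not overlap, and the log2 fold change was 1.39 ± 0.33 (1.19 and 1.51 in the single libraries), with an edgeR adjusted p of 0.0565. With the library as a replicate block it was 1.33 and passed, at an edgeR adjusted p of 0.0346. In this comparison 94 of 10250 genes were called (0.917%), 56 of them higher (0.546%) and 38 lower (0.371%), and 218 with the block. Of the 4 genes that could be tested 0 were called without it. At an unadjusted p under 0.05, 958 genes passed, and DESeq2 called 106 of the 6077 genes left by its own filter.

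The other genes of *Tshz2*-*Rmst* nuclei were closer to other GABAergic nuclei. *Glra2* was at 29.6 CPM in library 2, from 6 UMIs, and 81.4 CPM in library 3, from 40 UMIs, on either side of the 53.0 and 64.7 CPM of other GABAergic nuclei (log2 fold change 0.09 ± 0.36, edgeR adjusted p = 0.980, and -0.88 and 0.28 in the single libraries). *Glrb* was at 113 and 67.1 CPM (0.17 ± 0.26, edgeR adjusted p = 0.940) and *Gphn* at 760 and 809 CPM (0.03 ± 0.26, edgeR adjusted p = 0.989). *Glra1* had 0 UMIs in library 2, where 3 UMIs would be 14.8 CPM, and 4 UMIs in library 3.

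RNA of genes of glutamatergic neurons was measurable in *Tshz2*-*Rmst* nuclei, in library 2 at much the level of the *Foxp2* set. *Neurod2*, *Neurod6*, *Tbr1* and *Sv2b*, 4 such genes outside the gate, summed to 49.3 and 161 CPM in *Tshz2*-*Rmst* nuclei. This came from 10 and 79 UMIs, of which 9 and 72 were of *Sv2b*. The sum was 49.1 and 59.1 CPM in the *Foxp2* set, 22.9 and 35.1 CPM in other GABAergic nuclei and 679 and 503 CPM in glutamatergic nuclei. *Glra3* was at 102 and 38.3 CPM in the 11 and 20 *Tshz2*-*Rmst* nuclei with 0 UMIs of these genes and at 45.5 and 127 CPM in the 6 and 18 with any, so the order differed between the libraries. Without GABAergic nuclei that had these genes, the log2 fold change of *Glra3* was 1.30 ± 0.52 (edgeR adjusted p = 0.346). The part of this RNA in the result was otherwise not tested. The gate genes *Tshz2* and *Rmst* were themselves higher in glutamatergic than in all GABAergic nuclei. *Tshz2* was at 553 and 654 against 160 and 154 CPM, and *Rmst* at 309 and 415 against 59.7 and 81.8 CPM. Astrocyte-like nuclei had *Rmst* at 571 and 586 CPM, above glutamatergic nuclei, and *Tshz2* at 205 and 178 CPM. In other GABAergic nuclei, from which the gate takes nuclei with both genes, *Tshz2* was at 124 and 117 and *Rmst* at 43.6 and 33.0 CPM. These values describe the gate and are not a result. The astrocyte markers *Slc1a2*, *Slc1a3*, *Aqp4* and *Gja1* summed to 158 and 99.7 CPM in *Tshz2*-*Rmst* nuclei. In other GABAergic nuclei the sum was 88.3 and 124 CPM, so the order differed between the libraries. *Tshz2*-*Rmst* nuclei were also deeper than other GABAergic nuclei, with medians of 10373 and 11732.5 against 7137.5 and 7053.5 UMIs. The part of the gate genes, of astrocyte marker RNA or of depth in the level of *Glra3* was not tested. Just outside the gate, nuclei with *Tshz2* or *Rmst* but not both had *Glra3* at 56.3 and 38.5 CPM, and those with neither at 19.0 and 24.9 CPM. Of the 49 UMIs behind the 56.3 CPM, 20 lay in 1 nucleus.

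**Figure D4:**
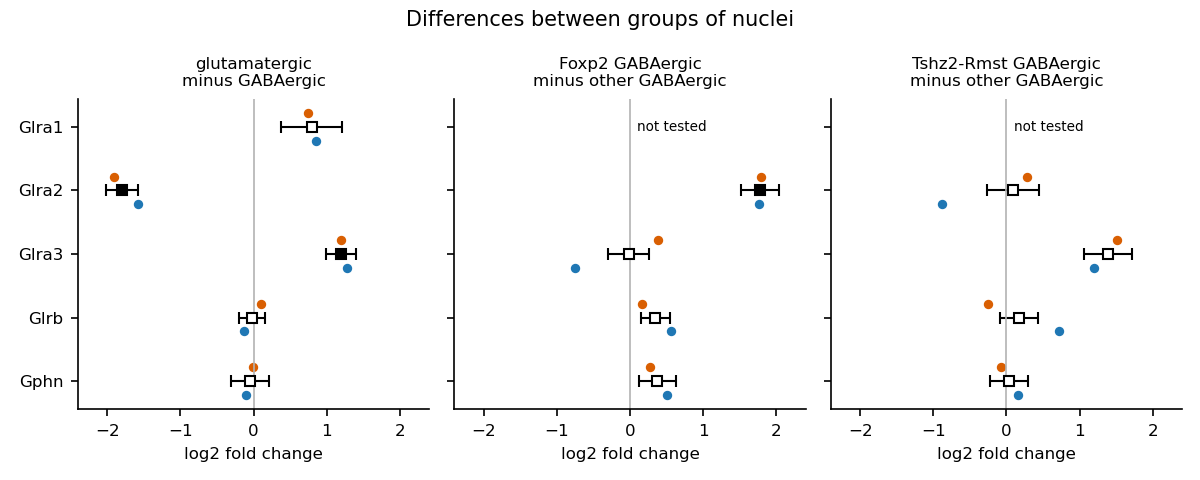
Log2 fold change (x axis) of each gene (y axis) in the comparisons glutamatergic minus GABAergic, *Foxp2* set minus other GABAergic and *Tshz2*-*Rmst* set minus other GABAergic nuclei, with black squares and bars for the edgeR estimate ± SE, filled where the adjusted p was under 0.05, and dots for library 2 (blue) and library 3 (orange). *Glra2* was at -1.80 and 1.78 in the first comparisons and *Glra3* at 1.19 in the first and 1.39, not called, in the last.

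Glutamatergic nuclei were not uniform either. Most had *Slc17a7* without *Slc17a6* (375 and 132 nuclei), some had both (81 and 55), and 28 and 21 nuclei had *Slc17a6* alone. *Glra3* was at 60.1 and 75.7 CPM with *Slc17a7* alone, at 107 and 91.5 CPM with both and at 307 and 196 CPM with *Slc17a6* alone, the same order in both libraries. In library 2, 1 nucleus gave 29 of the 107 *Glra3* UMIs of the last set. *Glra2* followed it in part, at 30.6 and 24.7, 29.9 and 48.4, and 94.5 and 69.1 CPM.

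*Glra1* was also higher in this small set. It was at 43.0 and 19.2 CPM in nuclei with *Slc17a6* alone, from 15 UMIs in 3 nuclei and 5 UMIs in 4 nuclei, and 8 of the 15 UMIs lay in 1 nucleus. It was at 2.58 and 3.53 CPM with *Slc17a7* alone. *Glrb* was at 112 and 72.9 CPM with *Slc17a6* alone against 73.6 and 79.7 CPM with *Slc17a7* alone, with overlap, and *Gphn* at 914 and 1017 against 685 and 805 CPM, without overlap. Leaving out the nuclei that lacked *Slc17a7* gave, against GABAergic nuclei, log2 fold changes of 1.02 ± 0.20 for *Glra3* (edgeR adjusted p = 0.00117), -1.92 for *Glra2* and 0.15 for *Glra1* (edgeR adjusted p = 0.902). This division, too, was chosen after values had been seen.

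**Figure D5:**
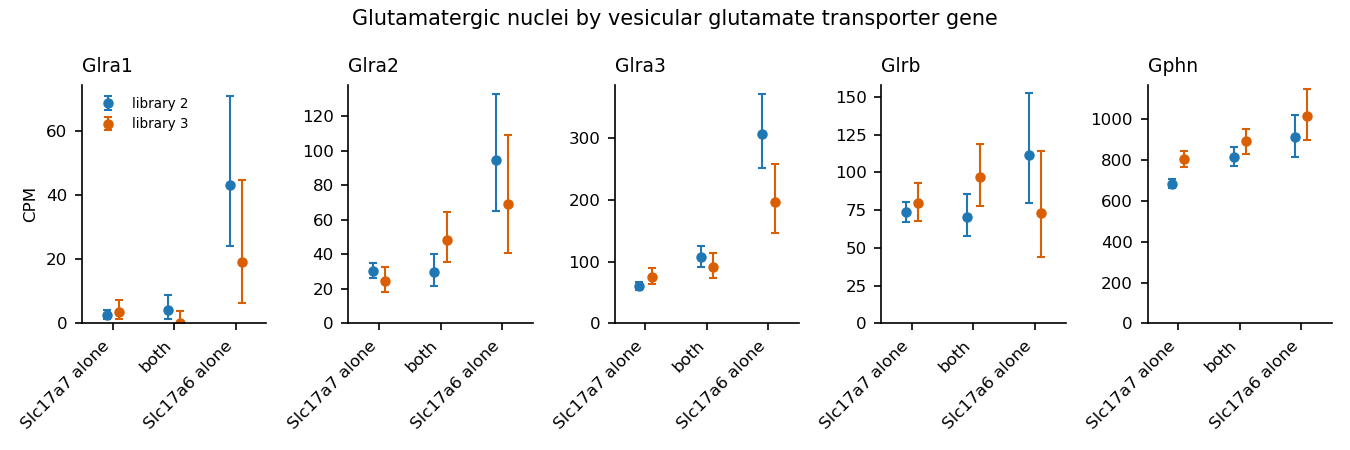
Level of each gene in CPM (y axis, 1 panel per gene) in glutamatergic nuclei with *Slc17a7* alone, with both transporter genes and with *Slc17a6* alone (x axis), library 2 in blue, library 3 in orange, with exact Poisson 95% intervals. *Glra3* was at 60.1 and 75.7 CPM with *Slc17a7* alone and at 307 and 196 CPM with *Slc17a6* alone.

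Nuclei with at least 3 UMIs of a subtype marker, which could carry several markers at once, are described where both libraries held at least 30 of them. This left out *Rspo2*, *Rorb* and *Pde11a* among glutamatergic and *Sst*, *Vip* and *Cnr1* among GABAergic nuclei. Of the 6 glutamatergic groups kept, *Glra3* was lowest in the *Etv1* nuclei, at 55.0 and 89.8 CPM, and highest in the *Sema5a* nuclei, at 111 and 115 CPM. *Cdh13* nuclei had 109 and 107 CPM, *Otof* nuclei 94.2 and 104, *Grik1* nuclei 95.9 and 95.3 and *Lypd1* nuclei 81.8 and 98.0 CPM. Apart from the *Etv1* nuclei of library 2, these lay between 81.8 and 115 CPM. *Glra2* lay between 22.3 and 52.3 CPM in the same nuclei.

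Among the 4 GABAergic groups kept, *Glra2* was at 106 and 119 CPM in *Rarb* nuclei, at 48.1 and 48.7 CPM in *Reln* nuclei, at 50.1 and 72.2 CPM in *Calb1* nuclei and at 52.7 and 61.2 CPM in *Moxd1* nuclei. *Rarb* nuclei were above the *Reln*, *Calb1* and *Moxd1* nuclei in both libraries. They were not kept apart from *Foxp2* nuclei, of which 80 and 200 carried *Rarb*. The level in *Rarb* nuclei is therefore not read as separate from that of the *Foxp2* set. *Glra3* was at 32.8 and 36.4 CPM in *Rarb* and 19.2 and 27.1 CPM in *Reln* nuclei, and it differed between the libraries in *Calb1* nuclei (23.7 and 63.7 CPM) and *Moxd1* nuclei (29.5 and 93.7 CPM).

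In astrocyte-like and oligodendrocyte-like nuclei *Glra2* and *Glra3* were lower than in the gated neurons, while *Glrb* and *Gphn* were higher. *Glra1* had 3 and 6 UMIs in astrocyte-like and 2 and 1 UMIs in oligodendrocyte-like nuclei, too few to be placed. Glial groups had at least 5 UMIs of the markers of a cell type, 3 times those of any other type, and none of the transmitter genes. *Glra2* was at 10.0 and 10.3 CPM in astrocyte-like nuclei (18.9% and 10.1% of the level in gated neurons) and *Glra3* at 18.3 and 17.5 CPM (28.2% and 30.1%). The neuronal genes *Snap25*, *Syt1* and *Rbfox3*, which astrocytes should lack, stood there at 17.8% to 25.6% of their neuronal level. *Glra2* lay near or under that level and *Glra3* somewhat above it. The neuronal level sums both classes, 484 glutamatergic and 388 GABAergic nuclei in library 2 and 208 and 677 in library 3. For genes that differ between the classes, such as *Glra2* and *Glra3*, the percent also follows this mix. What part of *Glra2* or *Glra3* came from RNA of neurons was not tested.

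*Glrb* was at 94.5 and 145 CPM in astrocyte-like nuclei, 123% and 175% of the neuronal level, and at 172 and 119 CPM in oligodendrocyte-like nuclei. In each library both glial values exceeded the glutamatergic and GABAergic values. In library 2, astrocyte-like nuclei were below the *Foxp2* set (97.5 CPM) and *Tshz2*-*Rmst* nuclei (113 CPM). *Gphn* was at 1371 and 1600 CPM in astrocyte-like nuclei, 186% and 183% of the neuronal level, and at 940 and 1226 CPM in oligodendrocyte-like nuclei. Thinned to 1000 UMIs, a depth chosen after seeing the data, *Gphn* was found in 74.9% and 78.2% of astrocyte-like and 47.5% and 54.9% of glutamatergic nuclei, and *Glrb* in 7.76% and 14.4% against 6.22% and 9.22%.

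In oligodendrocyte precursor-like nuclei (54 and 24 nuclei) *Glra1*, *Glra2* and *Glra3* had 0 UMIs, which at 3 UMIs allows up to 14.8 and 29.8 CPM. *Glrb* was present there, at 68.9 and 109 CPM, and so was *Gphn*, at 674 and 815 CPM, 91.6% and 93.2% of the neuronal level. Microglia-like nuclei (52 and 17 nuclei) had *Glrb* at 34.6 and 31.2 CPM, from 4 and 1 UMIs, and *Gphn* at 74.0% and 42.8% of the neuronal level, from 63 and 12 UMIs. *Glra2* in oligodendrocyte-like nuclei was at 13.4 and 28.0 CPM and *Glra3* at 3.35 and 18.3 CPM, from 2 and 17 UMIs. For *Glra2* this was 25.2% and 27.4% of the neuronal level, from 8 and 26 UMIs, and for *Glra3* 5.15% and 31.5%. *Snap25*, *Rbfox3* and *Syt1* were at 13.3% to 16.7% there in library 2 and 15.6% to 23.5% in library 3. *Glra2* lay above them in both libraries, while *Glra3* lay below them in library 2 and above them in library 3.

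Ordered by mean, the levels of *Glra2* ran from the *Foxp2* set (197 CPM), without overlap with the next, to other GABAergic (58.8), *Tshz2*-*Rmst* (55.5) and glutamatergic nuclei (34.2), each of which overlapped with the one beside it, and to oligodendrocyte-like (20.7) and astrocyte-like nuclei (10.2). For *Glra3*, *Tshz2*-*Rmst* (86.7) and glutamatergic nuclei (84.4) overlapped and stood apart from other GABAergic nuclei (33.1) and the *Foxp2* set (29.8). For *Glrb* the groups from oligodendrocyte-like (145) to other GABAergic nuclei (72.2) overlapped with their neighbours. For *Gphn*, astrocyte-like nuclei (1485) stood apart from oligodendrocyte-like nuclei (1083), which overlapped with the *Foxp2* set (947). The *Foxp2* set stood apart from *Tshz2*-*Rmst* (785) and glutamatergic nuclei (783), but its difference from other GABAergic nuclei was not called (edgeR adjusted p = 0.441).

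RNA of astrocyte marker genes was also measurable in the gated neurons. The astrocyte markers *Slc1a2*, *Slc1a3*, *Aqp4* and *Gja1* summed to 184 and 173 CPM in glutamatergic and 74.8 and 97.2 CPM in GABAergic nuclei, against 11185 and 11187 CPM in astrocyte-like nuclei. Most of the sum in neurons was of the gate genes *Slc1a2* and *Slc1a3*, which the gate limits. *Slc1a2* was at 153 and 136 CPM in glutamatergic and 51.5 and 61.0 CPM in GABAergic nuclei. *Slc1a3* was at 29.2 and 34.4 CPM and at 19.3 and 29.6 CPM. Whether this RNA came from astrocytes, and its part in the levels of *Glrb* and *Gphn*, was not tested. At the edge of the class gates, at exactly 2 UMIs of the glutamatergic genes, *Glra2* was at 36.1 and 25.6 CPM and *Glra3* at 85.3 and 89.9 CPM, and at 1 UMI, just outside, at 25.8 and 43.3 CPM and at 98.9 and 87.0 CPM. At exactly 2 UMIs of the GABAergic genes *Glra2* was at 141 and 172 CPM and at 1 UMI at 110 and 182 CPM.

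Lists of genes around the receptor are given by their counts, against the share called over all genes. That share was 16.5% between the classes, 12.6% in the *Foxp2* comparison and 0.917% in the *Tshz2*-*Rmst* comparison. Among 14 tested scaffold partners of the inhibitory synapse, 0 were called between glutamatergic and GABAergic nuclei, with a median log2 fold change of 0.07 against -0.02 over all genes. *Nlgn2*, the adhesion molecule neuroligin-2, was at 27.9 and 30.0 CPM in glutamatergic and 27.4 and 27.5 CPM in GABAergic nuclei. In either comparison within GABAergic nuclei 0 of 12 were called.

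Of genes that supply or remove glycine, 1 of 5 tested was called, *Slc32a1*, lower in glutamatergic nuclei by a log2 fold change of -5.38 ± 0.52 (edgeR adjusted p = 1.00e-05). *Slc32a1* also carries GABA and served above to check the class labels, so its call is no result on glycine. The other 4 were not called. *Slc6a9*, the glycine transporter GlyT1, was at 5.72 and 4.73 against 5.88 and 4.53 CPM, and *Slc6a5*, the neuronal glycine transporter GlyT2, was too sparse to be tested. Of the molybdenum cofactor genes 1 of 4 was called, *Mocos*, a molybdenum cofactor sulfurase, at 7.03 and 5.67 CPM in glutamatergic and 1.68 and 1.01 CPM in GABAergic nuclei (log2 fold change 2.32 ± 0.45, edgeR adjusted p = 0.00259). Within GABAergic nuclei 0 of 3 were called in each list and comparison.

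Many GABA-A receptors share the gephyrin scaffold. Of 12 subunit genes, 2 were called higher in glutamatergic nuclei and 1 lower. *Gabra2* was at 704 and 761 against 338 and 414 CPM (log2 fold change 0.99 ± 0.25, edgeR adjusted p = 0.0122). *Gabra5* was higher as well (0.61 ± 0.17, edgeR adjusted p = 0.0244), and *Gabrg1* was lower (-0.71 ± 0.22, edgeR adjusted p = 0.0391).

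In the *Foxp2* set, 1 of the 12 was called higher and 2 lower than in other GABAergic nuclei, against 12.6% over all genes. A pair of them is described. *Gabrg3*, named after its values were seen, was at 2436 and 2951 against 1005 and 1181 CPM (log2 fold change 1.34, edgeR adjusted p = 0.0036). *Gabrg1* was lower (-1.05, edgeR adjusted p = 0.0182). In *Tshz2*-*Rmst* nuclei 0 of 12 were called, against 0.917% over all genes. *Gabrg1* was at 104 and 73.2 CPM in them and at 32.2 and 39.7 CPM in other GABAergic nuclei (1.18 ± 0.30, edgeR adjusted p = 0.0838).

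Across 18 profiles, 4 neuronal and 5 non-neuronal groups in each of 2 libraries, the genes whose log2(CPM + 1) was most like that of *Glra2* among 8977 genes were *Teddm2* (Pearson's r = 0.976), *Cacng3* (0.954) and *Ryr1* (0.950). For *Glra3* they were *Actn2* (0.952), *Gm41361* (0.949) and *Tll1* (0.941), for *Glrb* *Acss2* (0.947), *Mapt* (0.947) and *Man2a2* (0.942), and for *Gphn* *4930488L21Rik* (0.911), *Acaca* (0.889) and *Mir100hg* (0.870). Profiles of a library share its depth and free RNA, and the glial profiles are low for the alpha genes. *Actn2*, for example, was at 35.0 and 30.3 CPM in glutamatergic nuclei and at 41.9 and 44.9 CPM in the *Foxp2* set, the reverse of the order of *Glra3*. Single UMIs also enter r. In vascular-like nuclei of library 2, 1 UMI of *Glra3* made 37.7 CPM, a value shared by *Actn2*, *Gm41361* and *Tll1*, all at 0 in library 3. *Glrb*, *Acss2* and *Man2a2* were likewise at 37.7 and 0 CPM in these nuclei. The part of such counts in the likeness was not tested. Among the 5 genes, r was 0.724 between *Glra2* and *Glra3* and 0.291 between *Glrb* and *Gphn*.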

How the data were processed

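The submitters' processing notes name Cell Ranger 7.0.1 and mm10. The authors deposited whole-number UMI counts as a matrix of genes by called barcodes for each library, before their quality filters (819, 3792 and 4588 barcodes). Whether introns were counted is not given in the sources used here. Of 32285 gene identifiers, 32158 were found in GENCODE vM21. The 5 genes and all lists were chosen with earlier results of these data known.

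Nuclei were kept with more than 200 genes, under 20% mitochondrial and under 0.2% hemoglobin UMIs. The study's filter on ribosomal protein genes and its doublet caller were not applied. The gates exclude nuclei with transmitter genes of both classes, and one alternative leaves out nuclei above the 95th percentile of UMIs. Intervals are exact Poisson or Clopper-Pearson at 95% and cover counting error only, and limits for 0 UMIs assume 3 counts.

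UMIs were summed per group and library. In R 4.3.3, edgeR 4.0.16 (quasi-likelihood, TMM, filterByExpr, p adjusted over all genes by Benjamini-Hochberg, threshold 0.05) tested glutamatergic against GABAergic sums, and in 1 fit over 3 disjoint GABAergic sets each gated set against other GABAergic nuclei, with 5 and 17 nuclei in both gates left out. SE is the absolute log2 fold change divided by the square root of F. Each library gave a sum to every group, so same-numbered sums come from the same pool of brains and are paired by construction. The fit with the library as a replicate block is an alternative, as are DESeq2 1.42.0, its size factors, no filter and other gates. The main fit does not use this pairing. Its p-values rest on a spread between 2 libraries that edgeR moderates over all genes, so they do not measure the spread of 1 gene. That spread may be technical. Scripts were tested on simulated data. Some genes of the lists are not reported here. Genes named from the lists were up to 4 called per list with the lowest adjusted p between the classes. Exceptions are *Gabrg3*, *Nlgn2*, *Slc6a9*, *Slc6a5* and *Glra4*, none of which was called between the classes. All 5 genes and the 3 genes most like each are named beside them.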

Additional observations from a re-analysis of the deposited data

Results flagged for a closer look

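Library 1 entered no comparison. In its 42 glutamatergic nuclei, with 337618 UMIs in all, *Glra2* was at 20.7 CPM, *Glra3* at 50.4 CPM, *Glrb* at 133 CPM and *Gphn* at 521 CPM, from 7, 17, 45 and 176 UMIs, each above the level that 3 UMIs would give, 8.89 CPM. *Glra1* had 0 UMIs.

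GABAergic nuclei in both the *Foxp2* and the *Tshz2*-*Rmst* gate were left out of the tests, and several of the genes lay above the level of 3 UMIs in them. In library 2 (5 nuclei) *Glra2* was at 69.3 CPM, *Glrb* at 121 CPM and *Gphn* at 918 CPM, while *Glra3* had 2 UMIs, under that level. In library 3 (17 nuclei) *Glra2* was at 86.7 CPM, *Glra3* at 64.4 CPM, *Glrb* at 112 CPM and *Gphn* at 834 CPM. *Glra1* had 0 UMIs in both libraries. In these few nuclei *Glra2* lay between the *Foxp2* set and other GABAergic nuclei in both libraries. Groups of 2 libraries cannot be searched for outliers.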

How the results depend on the processing

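The calls of *Glra2* and *Glra3* between the classes held under 7 of 7 other tools, filters and gates with both libraries (log2 fold changes -1.96 to -1.56 and 1.18 to 1.28, edgeR or DESeq2 adjusted p up to 0.00228 and 0.00345; without GABAergic nuclei that had other glutamatergic genes, -1.85 and 1.70), and that of *Glra2* in the *Foxp2* set under 8 of 8 (1.68 to 1.80, adjusted p up to 0.000272). *Glra3* in the *Tshz2*-*Rmst* set was called under 2 of 7 (1.28 to 1.40, adjusted p 0.00308 to 0.148), the replicate block and the fit without a filter (1.29, adjusted p = 0.00308). Blocking by library changed no other call of the 5 genes. It raised the number of genes called from 2125 to 3202 between the classes, from 1296 to 1912 in the *Foxp2* and from 94 to 218 in the *Tshz2*-*Rmst* comparison. DESeq2 called 768 of 10250 genes in the *Foxp2* comparison. In the *Tshz2*-*Rmst* comparison no filter gave 269 of 20696 genes and no limit on *Slc1a2* and *Slc1a3* 52 of 10287. Leaving out GABAergic nuclei with other glutamatergic genes gave 153 of 9471 there. Of 112 log2 fold changes of the 5 genes under alternatives with both libraries, 100 kept direction and call, 2 became calls and 10, none of them called, changed sign. For *Glrb* between the classes these were 0.0063 with DESeq2, 0.034 without deep nuclei, 0.054 with at least 3 UMIs of the class genes and 0.060 without GABAergic nuclei that had other glutamatergic genes. In the *Tshz2*-*Rmst* set *Glra2* was at -0.0014 without a filter, -0.12 without the limit on *Slc1a2* and *Slc1a3*, -0.15 with at least 2 UMIs of the gate genes and -0.48 without nuclei that had other glutamatergic genes, *Glrb* at -0.0076 without deep nuclei, and *Gphn* at -0.063 without a filter. The cause was not tested. With 1 library left out there is no test and no count. The 2 libraries then differed in sign for *Glrb* between the classes (-0.13 and 0.10), *Glra3* in the *Foxp2* set (-0.75 and 0.39), and *Glra2* (-0.88 and 0.28), *Glrb* (0.72 and -0.25) and *Gphn* (0.16 and -0.07) in the *Tshz2*-*Rmst* set, 0 of which were called. Thinning moved 21 of 25 shares of nuclei. Adding library 1 was not run, since its gate held 7 GABAergic nuclei. *Glra1* is limited by its few UMIs, and the *Tshz2*-*Rmst* set by its 17 and 38 nuclei. The alternatives on other glutamatergic genes and on nuclei without *Slc17a7*, were chosen after seeing the data.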
